A study of Mus musculus with 9 samples.

Results

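A set of 10 genes that restrain mTORC1, the kinase complex that drives cell growth, were followed in mouse macrophages: the sestrins Sesn1, Sesn2 and Sesn3, Ddit4, the GATOR1 subunits Depdc5, Nprl2 and Nprl3, the tuberous sclerosis genes Tsc1 and Tsc2, and Deptor. They are 10 of the 24187 genes in the 2 deposited tables, taken by name as brakes on this pathway, and the set was selected on the log2 difference of Sesn1 between lipopolysaccharide (LPS) and control, which was among the largest falls. All 10 were in both tables and passed the filter on low values in all 3 comparisons. Bone marrow of C57BL/6 mice aged 8 weeks was grown for 6 days with M-CSF (10 ng/ml) into bone-marrow-derived macrophages. These were then kept for 6 h in medium alone (control), with LPS at 500 ng/ml, or with LPS at 500 ng/ml together with NCT503 at 50 µM (LPS + NCT503), with 3 RNA-seq libraries in each group. NCT503 is a small molecule inhibitor of PHGDH, which makes the first step from glycolysis towards serine. The cells carried no labelled genetic change, and cells given NCT503 without LPS were not analysed here. The labels do not say whether the 3 libraries of a group came from separate mice or cultures, so p-values measure only the spread between these libraries.

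As background, mTORC1 is switched on at the lysosome by the Rag GTPases when amino acids are present and by the GTPase Rheb when growth factors are present. GATOR1 turns the Rag GTPases off, and sestrins free GATOR1 from its inhibitor GATOR2, for example Sesn2 when leucine is scarce. The TSC complex turns Rheb off, Ddit4 (also called REDD1) acts through the TSC complex under hypoxia, glucocorticoids and other stress, and Deptor binds the kinase itself. In macrophages mTORC1 is among the kinases that set metabolism and translation after LPS.

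Libraries held 20295862 to 23599685 reads over the 21434 genes in both tables. Values are given as normalized reads, the reads per gene divided by one size factor per library (0.733 to 1.46), on a single scale for the 9 libraries. Size factors were lowest in the LPS libraries. Scaling by library totals alone (CPM scaling) moves the median of all genes by 0.24 on the log2 scale for LPS + NCT503 against LPS, by −0.45 for LPS + NCT503 against control and by −0.69 for LPS against control. Directions of small differences rest on this choice. All 10 macrophage markers, among them Adgre1, Csf1r and Lyz2, had reads in every group. Control libraries summed to 289008 to 371129 normalized reads of them, LPS libraries to 469488 to 546035, and LPS + NCT503 libraries to 218422 to 285141. Of these markers, 6 of 10 fell with NCT503. All 8 neutrophil and granulocyte markers with values fell with NCT503 (summed level 2686 to 6395 in LPS and 278 to 617 with NCT503), as did all 7 eosinophil, basophil and mast cell markers (1122 to 1711 and 177 to 196), with Epx at 0 in LPS + NCT503. Sums of fibroblast and stromal markers ran from 6368 to 30168 in control, from 18967 to 39823 in LPS and from 20088 to 50168 with NCT503. The highest were control 1, LPS 3 and LPS + NCT503 2. Single markers of these 12 went both ways with NCT503, 2 higher and 3 lower, beside 16.2% and 15.1% of all genes. In LPS against control 6 were higher and 0 lower, beside 20.5% and 21.5%. B cell markers (13.5 to 92.9 over the 9 libraries) and T and natural killer cell markers (40.6 to 243) were low. In bulk samples fewer cells of a type and less RNA per cell cannot be told apart, and the part of other cells in the results below was not tested.

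The main sestrin transcript differed between groups: per kb, untreated cells had mostly Sesn1, and cells with LPS + NCT503 had nearly only Sesn2. Sesn1 (chromosome 10, 41809935 to 41908424, mm10, plus strand), a p53 and FOXO target, had 2666, 2753 and 2677 normalized reads in the control libraries. It had 74.9, 53.2 and 66.9 in the LPS libraries and 75.4, 52.0 and 54.1 with LPS + NCT503. Every treated library lay far below every control library, and the 2 treated groups overlapped. The LPS mean of 64.98 ± 10.97 (SD, n = 3) was 2.42% of the control mean of 2699 ± 47.4 by the fitted fold, a log2 difference of −5.37 ± 0.17 (SE). This is the value for which Sesn1 was taken up, and it is given as a description. It was the 11th lowest fold of 19908 genes in LPS against control, between Gm15513 (−5.49) and Lpar5 (−5.31), with Rnf144b (−5.50) and Tbc1d4 (−5.22) next to these.

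Sesn1 with LPS + NCT503 could not be told from Sesn1 with LPS alone. The log2 difference of LPS + NCT503 from LPS was −0.11 ± 0.28 (limma, adjusted p = 0.795), and it turned to 0.13 under CPM scaling and to 0.00067 without LPS 1, with adjusted p from 0.554 to 0.999 over 15 alternatives. This test uses the LPS libraries on which Sesn1 was chosen and is not independent of that choice. Against control, a comparison that shares the control libraries with the one that chose it, Sesn1 with LPS + NCT503 was 44.5-fold lower (log2 −5.48 ± 0.18), given as a description.

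Sesn2 (chromosome 4, 132492032 to 132510501, minus strand), a leucine-binding sestrin and a target of ATF4, NRF2 and p53, was highest with the inhibitor. It had 829, 1052 and 1062 normalized reads in control, 621, 871 and 847 in LPS, and 3499, 3651 and 3420 with LPS + NCT503. Control and LPS libraries overlapped, and all 3 libraries with NCT503 lay above all others. Sesn2 rose with NCT503 from 779.8 ± 138 to 3523 ± 117 (mean ± SD, n = 3), a 4.56-fold difference (log2 2.19 ± 0.18, limma, adjusted p = 4.97e-06). It stayed above control by 1.85 ± 0.15 (adjusted p = 6.19e-06), while LPS alone differed from control by −0.34 ± 0.18. Single members are given with no p in that comparison, since it chose them.

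Sesn3 (chromosome 9, 14275067 to 14333101, plus strand), a FOXO target, was higher with NCT503 as Sesn2 was, at a lower level. Its libraries had 164, 111 and 118 normalized reads in control, 153, 162 and 197 in LPS, and 501.5, 251 and 448 with LPS + NCT503. Control and LPS overlapped. All 3 libraries with NCT503 lay above every LPS library, LPS + NCT503 2 being the lowest of them. Sesn3 rose with NCT503 by 1.17 ± 0.27 (log2, limma, adjusted p = 0.00556) and stood 1.56 ± 0.27 above control (adjusted p = 0.00112). Between LPS and control it differed by 0.39 ± 0.21, which turned to −0.30 under CPM scaling.

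**Figure D1:**
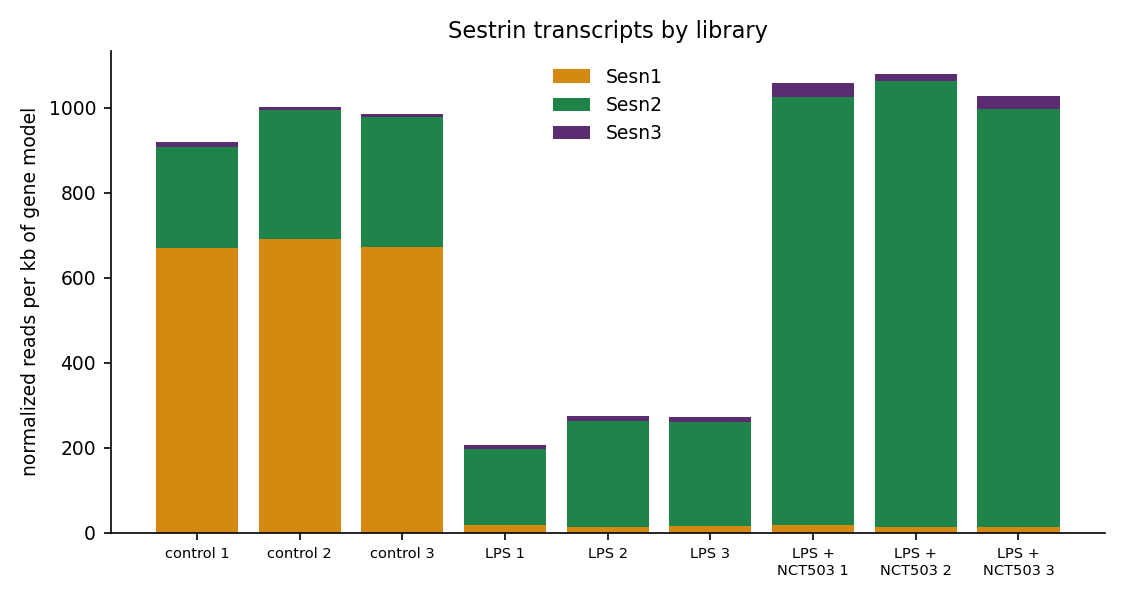
Normalized reads per kb of gene model (vertical axis) for Sesn1, Sesn2 and Sesn3, stacked, in each of the 9 libraries. Sesn1 fills most of the control bars, and Sesn2 nearly all of the LPS + NCT503 bars, while the LPS bars sum to 208 to 275.

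Per kb of gene model, which allows genes to be compared within a library, Sesn1 made up 70.0 ± 2.49% of the 3 sestrins in control, 6.69 ± 2.15% in LPS and 1.44 ± 0.307% with LPS + NCT503. Sesn2 made up 29.1 ± 2.73%, 88.8 ± 2.597% and 96.1 ± 1.101%, and Sesn3 at most 4.84% in any library. The order was Sesn1, Sesn2, Sesn3 in control and Sesn2 first in both treated groups, where Sesn1 and Sesn3 changed places between LPS (16.3 ± 2.76 and 11.2 ± 1.502 normalized reads per kb) and LPS + NCT503 (15.2 ± 3.25 and 26.2 ± 8.65). The sum of the 3 was 969 ± 43.9 in control, 252 ± 38.4 in LPS and 1055 ± 26.7 with LPS + NCT503. The inhibitor libraries summed to 4.22-fold the LPS level (log2 2.08 ± 0.14, exact two-sided permutation p = 0.1, the smallest that 3 against 3 libraries allow). Their sum lay 0.12 ± 0.04 above control on the log2 scale, and that small difference became 0.04 under TMM scaling and −0.33 under CPM scaling. It is given as a description with no p, since the control sum is mostly Sesn1, which was chosen on these control libraries. The gene model of Sesn3 is 15269 bases long against 3982 and 3475 for Sesn1 and Sesn2, and whether the cells use all of it was not tested.

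Start regions of Sesn1 and Sesn2 are shown because these paralogs were each the main sestrin in a different group, and that of Ddit4 because it was higher with each treatment. These are the 250 bases before a RefSeq start site (GRCm38.p6, the assembly of mm10), written on the strand of the gene. Capitals mark matches on either strand to the motifs searched: TGATGNAA (ATF4 and C/EBP composite), GTAAACA (FOXO), ACGTG and GCGTG (HIF), CACGTG (E-box, which holds ACGTG), TGACNNNGC (antioxidant response element) and the p53 decamer.
Sesn1, second start site, chr10:41887189-41887438, plus strand: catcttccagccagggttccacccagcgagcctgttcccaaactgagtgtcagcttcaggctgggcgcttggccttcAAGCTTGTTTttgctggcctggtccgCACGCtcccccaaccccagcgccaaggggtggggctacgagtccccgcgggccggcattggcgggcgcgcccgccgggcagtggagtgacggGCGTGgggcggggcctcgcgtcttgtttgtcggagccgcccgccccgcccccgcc
Sesn2, chr4:132510457-132510706, minus strand: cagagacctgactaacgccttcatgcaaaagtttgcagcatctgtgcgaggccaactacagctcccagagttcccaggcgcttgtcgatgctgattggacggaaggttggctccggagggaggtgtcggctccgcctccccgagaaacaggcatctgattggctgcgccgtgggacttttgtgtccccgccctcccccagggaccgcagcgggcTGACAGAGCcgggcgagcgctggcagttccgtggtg
Ddit4, chr10:59951771-59952020, minus strand: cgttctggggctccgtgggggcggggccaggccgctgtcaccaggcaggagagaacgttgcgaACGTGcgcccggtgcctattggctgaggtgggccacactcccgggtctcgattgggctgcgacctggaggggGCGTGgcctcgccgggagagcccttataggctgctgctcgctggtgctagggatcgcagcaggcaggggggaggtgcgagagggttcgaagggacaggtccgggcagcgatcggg
Counted from the start site, the Sesn1 sequence holds a p53 decamer match at position −173 (AAGCTTGTTT) and GCGTG, on the opposite strand as CACGC, at −147 and on its own strand at −55. Sesn2 holds one antioxidant response element match at −36 (TGACAGAGC). Ddit4 holds ACGTG at −187 and GCGTG at −115. The other RefSeq start of Sesn1, upstream at chr10:41810324-41810573, holds none of the motifs before the start site and GTAAACA on the opposite strand at position 23 after it. Among 32851 windows of 300 bases around RefSeq start sites, 8.36% held the p53 decamer, 32.4% GCGTG, 19.6% ACGTG, 12.4% the antioxidant response element, 7.15% CACGTG, 3.97% TGATGNAA and 3.65% GTAAACA. The windows of Sesn3 and Nprl3 held none of these motifs. Among the other members, GCGTG was found before the starts of Depdc5, Nprl2, Tsc1 and Tsc2, and a p53 decamer before that of Nprl2. A match describes letters only, and which Sesn1 start the cells use was not tested. The deposited gene models of Sesn2 and Ddit4 begin inside the windows shown, upstream of the RefSeq start. RefSeq windows were matched for 9 of the 10 members, with 10 windows in all.

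Ddit4 (chromosome 10, 59949669 to 59951834, minus strand), a stress-induced activator of the TSC complex and a target of HIF1A, ATF4 and the glucocorticoid receptor, was higher with each treatment. It had 268, 103 and 142 normalized reads in control, 531, 642 and 940 in LPS, and 1589, 2854 and 2432 with LPS + NCT503. The 3 groups did not overlap and stood in the order control, LPS, LPS + NCT503. Within each group Ddit4 ranked the libraries in the same order as the summed fibroblast and stromal markers. Its highest values were in control 1, LPS 3 and LPS + NCT503 2, where those sums were highest too. Whether other cells contributed to its level was not tested. With NCT503 Ddit4 rose from 704.5 ± 212 to 2292 ± 644, by 1.70 ± 0.26 on the log2 scale (limma, adjusted p = 0.000402). Against control the inhibitor libraries were 14.0-fold higher (3.81 ± 0.35, adjusted p = 3.2e-05), and LPS alone differed from control by 2.11 ± 0.32. Per kb Ddit4 was the most abundant brake with LPS + NCT503, at 1306 ± 367 normalized reads per kb against 1014 ± 33.8 for Sesn2, a difference within its own spread.

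**Figure D2:**
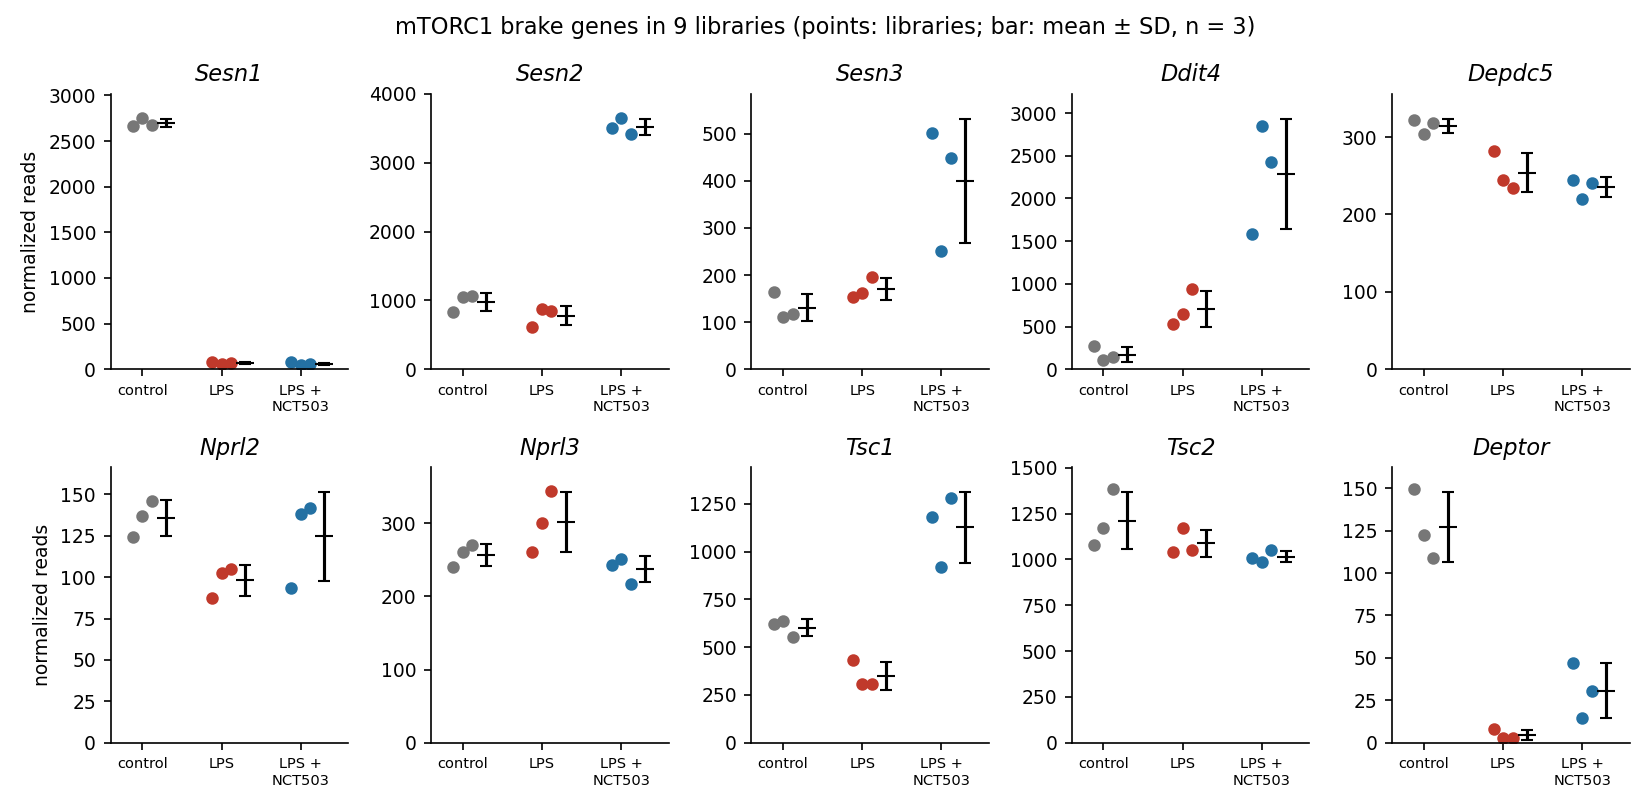
Normalized reads (vertical axes, each from 0) of the 10 brake genes in 3 control, 3 LPS and 3 LPS + NCT503 libraries; points are libraries, and bars are mean ± SD. Sesn1 and Deptor stand high only in control, Sesn2 and Tsc1 are highest with LPS + NCT503, and Depdc5, Nprl2, Nprl3 and Tsc2 span a narrower range.

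Tsc1 and Tsc2 encode the partners of the TSC complex, Tsc2 carrying the activity that turns Rheb off and Tsc1 stabilizing it. Tsc1 (chromosome 2, 28641228 to 28691167, plus strand) had 620, 634 and 552 normalized reads in control, 434, 305 and 308 in LPS, and 1180, 921 and 1278 with LPS + NCT503. No 2 groups overlapped, with LPS lowest and LPS + NCT503 highest. Tsc1 rose with NCT503 3.23-fold, from 349 ± 73.6 to 1126 ± 185 (log2 1.69 ± 0.21, limma, adjusted p = 8.77e-05). Against control it was higher by 0.89 ± 0.17 (adjusted p = 0.00182), a call lost under CPM scaling (0.44, adjusted p = 0.0715). LPS alone differed from control by −0.80 ± 0.18.

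Tsc2 (chromosome 17, 24595937 to 24632629, minus strand) stayed near one level. It had 1081, 1170 and 1385 normalized reads in control, 1041, 1171 and 1052 in LPS, and 1009, 987 and 1049.8 with LPS + NCT503. LPS libraries overlapped with those of both other groups, while all LPS + NCT503 libraries lay below all control libraries. It did not pass the test with NCT503 (−0.10 ± 0.16, limma, adjusted p = 0.67, and 0.15 under CPM scaling) or against control (−0.25 ± 0.15, adjusted p = 0.221, and −0.70 with adjusted p = 0.00175 under CPM scaling). The share of Tsc1 in the summed level per kb of the pair was 20.4 ± 3.06% in control, 14.1 ± 3.04% in LPS and 35.9 ± 3.27% with LPS + NCT503. These shares use the deposited gene model of Tsc2, which is 6018 bases long. The GENCODE M21 model of Tsc2 has 9620 exon bases and a different start or end, so the shares depend on the model. In the GENCODE model, exons of Tsc2 overlap those of Pkd1 on the opposite strand over 7.2% of its exon bases. Since the strand setting of the counting is not given, Tsc2 reads may include some of Pkd1.

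Deptor (chromosome 15, 55112317 to 55259271, plus strand), the subunit that inhibits the kinase directly, had few reads in untreated cells and fewer with LPS. It had 150, 123 and 109 normalized reads in control, 8.06, 2.73 and 2.62 in LPS (7, 2 and 2 reads), and 46.9, 14.6 and 30.3 with LPS + NCT503 (46, 14 and 28 reads). The 3 groups did not overlap, with LPS + NCT503 between the others. Deptor rose with NCT503 from 4.47 ± 3.11 to 30.6 ± 16.2 (log2 2.52 ± 0.54, limma, adjusted p = 0.00399). At so few reads the size of this fold depends on the pseudocount of 1. It remained 4.44-fold below control (−2.15 ± 0.38, adjusted p = 0.00117), and LPS alone differed from control by −4.68 ± 0.40, the 26th lowest fold. Within each group the highest Deptor value was in library 1. Of its exon bases 3.41% are shared with Gm9920 on the opposite strand.

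The GATOR1 subunits, which together turn the Rag GTPases off, did not pass the test with NCT503. Depdc5 (chromosome 5, 32863701 to 32994236) had 305 to 322 normalized reads in control, 235 to 282 in LPS and 221 to 245 with LPS + NCT503. Its control libraries lay above all treated ones, and the treated groups overlapped. With NCT503 it differed from LPS by −0.11 ± 0.19 (limma, adjusted p = 0.704, and 0.14 under CPM scaling), and from control by −0.42 ± 0.16 (adjusted p = 0.0568). The difference from control passed with TMM scaling (−0.501, adjusted p = 0.0273), with edgeR (−0.46, adjusted p = 0.0217) and with CPM scaling (−0.87, adjusted p = 0.00181), within a range of 0.00181 to 0.169 over 14 alternatives.

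Nprl2 (chromosome 9, 107542226 to 107545706) had 124 to 146 normalized reads in control, 87.6 to 105 in LPS and 93.8 to 142 with LPS + NCT503. The inhibitor group overlapped with both others, since its library 1 was as low as the LPS libraries. Its difference from LPS was 0.32 ± 0.25 (limma, adjusted p = 0.353). Nprl3 (chromosome 11, 32225628 to 32267707) ranged over 239.8 to 270.0 in control, over 262 to 344 in LPS and over 218 to 252 with LPS + NCT503, where the inhibitor libraries lay below the LPS libraries and overlapped with control. Its difference from LPS was −0.34 ± 0.20 (adjusted p = 0.221). LPS alone differed from control by −0.31 ± 0.16 for Depdc5, −0.46 ± 0.20 for Nprl2 and 0.22 ± 0.17 for Nprl3, the last turning to −0.47 under CPM scaling. Exons of Nprl3 overlap those of Mpg on the opposite strand over 17.7% of its exon bases.

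**Figure D3:**
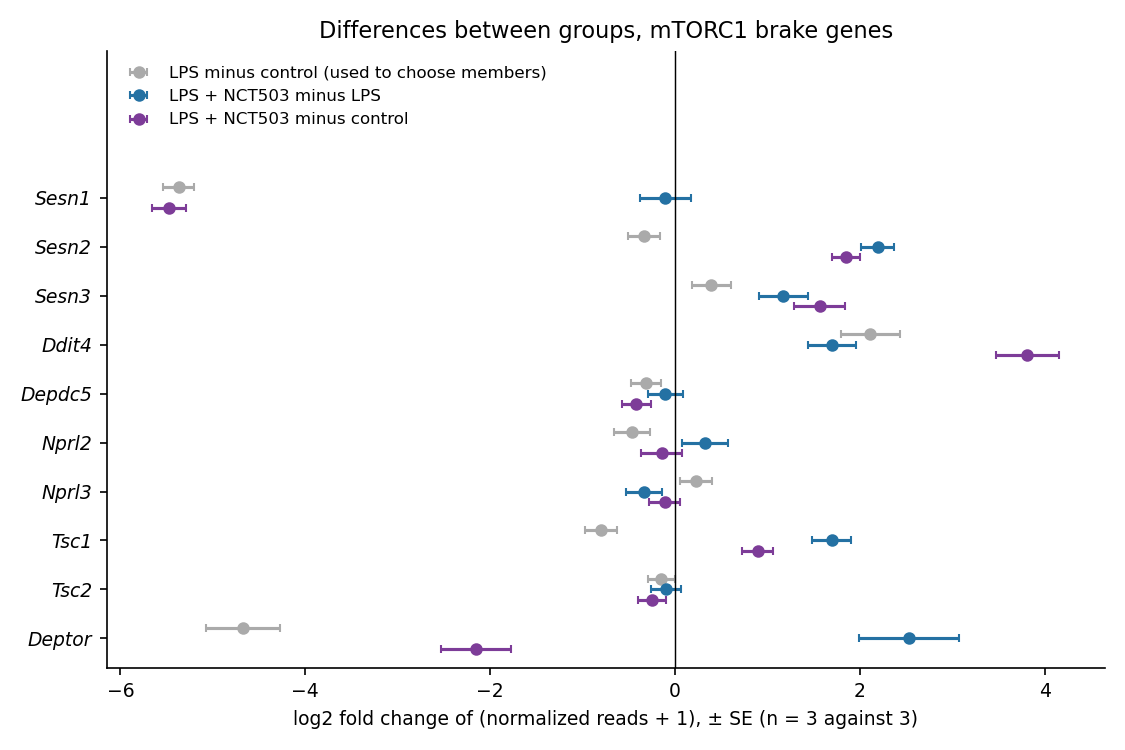
Log2 fold change ± SE (horizontal axis, n = 3 against 3 libraries) for each brake gene (rows) in LPS minus control, LPS + NCT503 minus LPS, and LPS + NCT503 minus control. Sesn2, Sesn3, Ddit4, Tsc1 and Deptor lie to the right of 0 with NCT503, and Sesn1 lies beyond −5 against control with and without it.

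Counted together, 5 of the 10 brakes rose with NCT503 and 0 fell, against 31.3% of the 20527 genes tested that passed in either direction (16.2% higher, 15.1% lower). The 5 kept their direction and their call under each of the 15 alternatives fitted per gene. Of the 10, 0 were lower at an unadjusted p under 0.05 by limma, and edgeR and DESeq2 also called 0 lower. The groups did not overlap for 6 of the 10, against 43.9% of genes. The median log2 difference of the 10 was 0.75, and that of all genes tested was 0.11. Over all genes, 3335 rose and 3097 fell, a split that became 4407 and 2136 under CPM scaling, and without LPS + NCT503 3 the number called was 4225 in place of 6432. Against control, 4 brakes were higher with LPS + NCT503 and 2 lower, beside 40.4% of all genes called (20.7% higher, 19.7% lower). Sesn1, 1 of the lower ones, was chosen on these control libraries. Under CPM scaling 3 were higher and 5 lower. Libraries did not overlap for 8 of the 10 in that comparison, against 50.2% of genes. Over all genes that split was 4134 higher and 3927 lower, and 2452 and 6574 under CPM scaling. In LPS against control, the comparison that chose the members, 1 was past the threshold higher and 3 lower, beside 42% of all genes (20.5% higher, 21.5% lower), and libraries did not overlap for 6 of the 10, beside 51.1% of genes. Nothing is read from these counts. Over all genes that split was 4076 higher and 4289 lower, and 2092 and 8539 under CPM scaling. The 3 comparisons share libraries and are not independent of one another.

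The authors' deposited table for LPS with NCT503 against LPS lists log2 fold changes of 2.18 for Sesn2, 1.70 for Ddit4, 1.69 for Tsc1, 1.23 for Sesn3 and 2.75 for Deptor, with adjusted p from 2.52e-25 (Sesn2) to 0.00107 (Deptor), and −0.10 for Sesn1 with an adjusted p of 0.860.

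Whether partners responded differently to the inhibitor was tested on log2 ratios within a library, which do not depend on the scaling. The ratio of Sesn1 to Sesn2 was 1.47 ± 0.19 in control, −3.56 ± 0.49 in LPS and −5.86 ± 0.31 with LPS + NCT503 (mean ± SD, n = 3, ratios of reads and not per kb). With NCT503 it was lower than in LPS by 2.30 ± 0.33 (SE). The ratio of Sesn3 to Sesn2 was lower by 1.02 ± 0.36, and that of Sesn1 to Sesn3 by 1.28 ± 0.29. The ratio of Tsc1 to Tsc2 was higher with NCT503 by 1.79 ± 0.24, going from −1.65 ± 0.35 to 0.14 ± 0.21. The ratio of Nprl2 to Nprl3 was higher by 0.66 ± 0.23, from −1.60 ± 0.09 to −0.95 ± 0.38. In all 5 ratios the LPS + NCT503 and LPS libraries did not overlap, as was so for 43.9% of single genes. The share for other gene pairs was not computed. The 3 sestrin ratios are built from the same 3 genes and are not independent, and those with Sesn1 use LPS libraries on which it was chosen. Each of the 5 ratios gave an exact two-sided permutation p of 0.1, and 0.1 adjusted over the 5, the smallest value that 3 against 3 libraries allow.

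**Figure D4:**
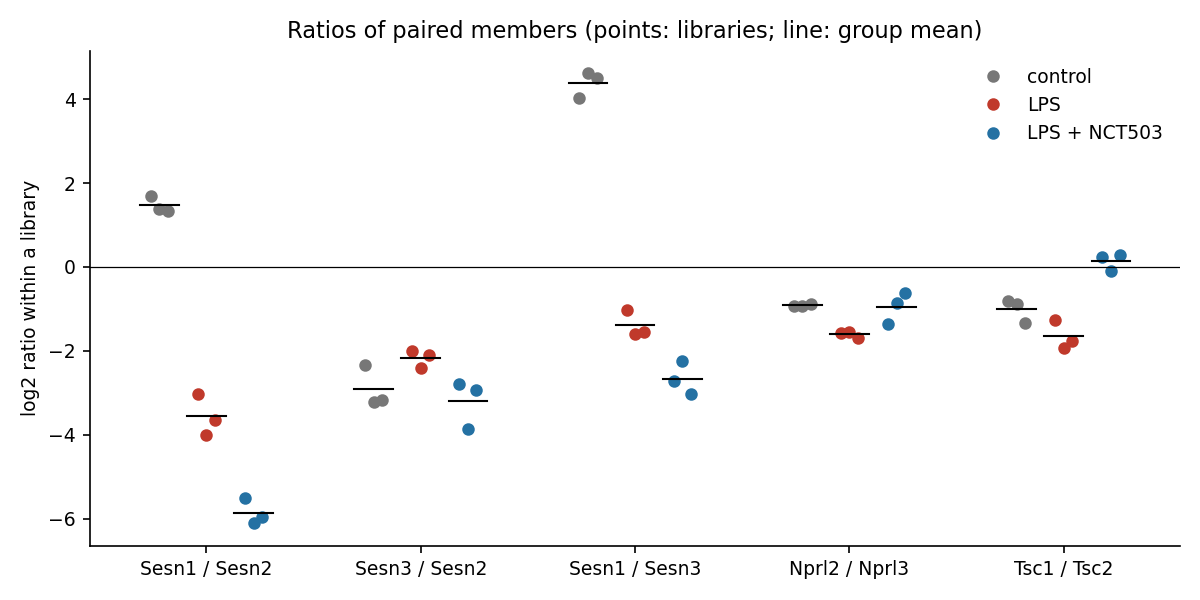
Log2 ratio of paired members within each library (vertical axis) for 5 pairs, by group; points are libraries and lines are group means. Sesn1 to Sesn2 drops from above 0 in control to below −5 with LPS + NCT503, and Tsc1 to Tsc2 is near 0 only with LPS + NCT503.

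The rest of the pathway held genes that rose and genes that fell with NCT503. The counts below stand beside 16.2% of all genes tested that rose, 15.1% that fell and a median log2 difference of 0.11. Of 13 genes of the Ragulator, the Rag GTPases and the folliculin complex, which carry the amino acid signal at the lysosome, 6 rose and 0 fell (median log2 0.77). Rragd, a Rag GTPase (5.52 ± 0.19, limma, adjusted p = 5.66e-08), folliculin itself, Flcn (1.84 ± 0.18), and its partner Fnip1 (2.43 ± 0.31) were those of smallest p. Of 13 amino acid sensors and subunits of GATOR2 and KICSTOR, 4 rose and 1 fell (median 0.11, as over all genes). The leucyl-tRNA synthetase Lars (2.04 ± 0.25), the GATOR2 subunit Mios (1.21 ± 0.27) and the arginine sensor Castor1 (1.14 ± 0.30, adjusted p = 0.0129, and 0.0596 without LPS + NCT503 3) rose.

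Of 15 genes of Rheb, AKT and AMPK signalling around the TSC complex, 4 rose and 5 fell (median −0.28). The AMPK subunit Prkag2 rose (2.09 ± 0.30), and the kinase Stk11, which activates AMPK, fell (−1.30 ± 0.20). Of 13 mTORC1 subunits and substrates, 5 rose and 3 fell (median 0.28). The elongation factor kinase Eef2k (2.32 ± 0.24), the S6 kinase Rps6kb1 (1.21 ± 0.23) and the autophagy kinase Ulk1 (0.94 ± 0.19) rose. Of 6 other brakes on growth factor and mTORC1 signalling, 3 rose and 3 fell (median 0.83). Ddit4l, the paralog of Ddit4, rose from 4.94 ± 3.11 to 54.7 ± 8.45 normalized reads (3.41 ± 0.49, limma, adjusted p = 0.000273), and Trib3, which binds AKT, rose by 3.32 ± 0.22, while Tmem127 fell by 1.15 ± 0.17. Falls in these lists depended on the settings: the sensor list had 0 to 4 and the mTORC1 list 0 to 3 over the alternatives.

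Genes known to share inducers with the brakes were counted in the same comparison. Of 18 genes of ATF4 and its targets, an inducer of Sesn2 and Ddit4 when amino acids are short, 14 rose and 0 fell (median 1.82), with Asns (2.89 ± 0.17), Slc7a1 (2.68 ± 0.17) and Trib3 of smallest p. All 8 genes of NRF2 and its targets, the oxidative stress regulator, rose (median 1.26), with Gclc (2.45 ± 0.19), Slc7a11 (2.45 ± 0.27, also in the ATF4 list) and Srxn1 (2.11 ± 0.16) of smallest p, and 5 of them rose under the alternative with the fewest calls. Of 13 genes of HIF1A and its targets, 6 rose and 1 fell (median 0.39). Vegfa (2.76 ± 0.20), Adm (2.68 ± 0.22) and Egln3 (2.57 ± 0.24) rose. Of 8 genes of the glucocorticoid receptor and its targets, 3 rose and 0 fell (median 0.44), namely Sgk1 (2.40 ± 0.18), Klf9 (2.15 ± 0.23) and Tsc22d3 (1.63 ± 0.25). In LPS against control, 12 genes of the ATF4 list were higher and 1 lower, and 6 of the NRF2 list higher and 0 lower. There 12 of the HIF1A list were higher and 0 lower, and 4 of the glucocorticoid receptor list higher and 2 lower. These counts stand beside 20.5% of all genes higher and 21.5% lower. Sesn2 differed by −0.34 ± 0.18 and Ddit4 by 2.11 ± 0.32 in that comparison.

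The p53 and FOXO lists, whose factors are known inducers of Sesn1, were mixed between LPS + NCT503 and LPS, where Sesn1 did not pass the test. Of 17 genes of p53 and its targets, 7 rose and 2 fell with NCT503 (median 0.40): Plk2 (2.68 ± 0.22) and Trp53inp1 (2.39 ± 0.23) rose, and Btg2 fell (−2.58 ± 0.16). Of 14 FOXO factors and targets, 5 rose and 3 fell (median 0.33): Irs2 rose (1.67 ± 0.17), and Txnip (−4.03 ± 0.18) and Pik3ip1 (−1.62 ± 0.27) fell. Beside these, the median of all genes tested was 0.11. In LPS against control, where Sesn1 fell, 7 genes of the p53 list were higher and 4 lower. In the FOXO list 3 were higher and 6 lower there, beside 20.5% of all genes higher and 21.5% lower. Each list's part in the levels of the brakes was not tested.

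**Figure D5:**
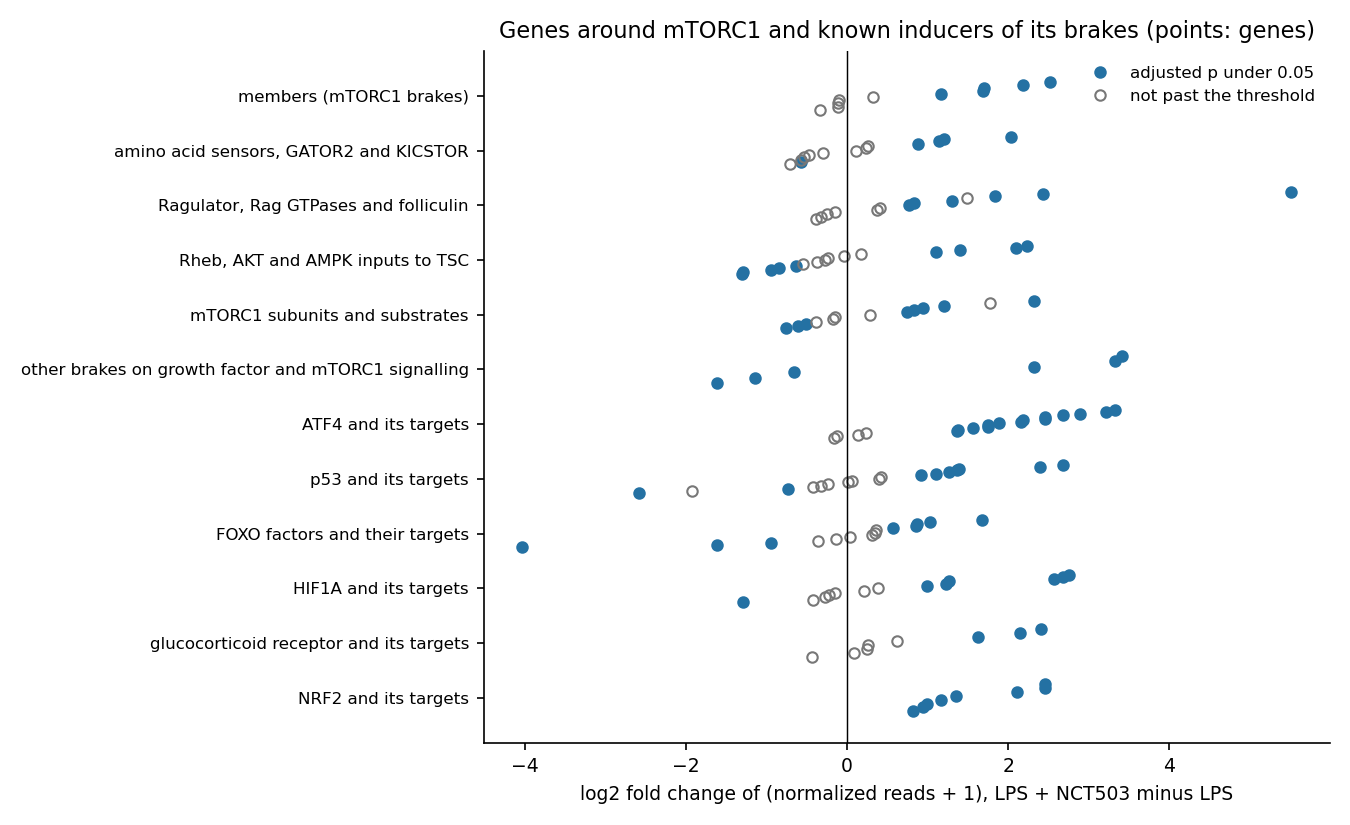
Log2 fold change, LPS + NCT503 minus LPS (horizontal axis), of each gene (points) in the brakes and in 11 lists (rows); filled points passed an adjusted p of 0.05. The ATF4 row has 14 and the NRF2 row 8 filled points, all to the right of 0, while the p53 and FOXO rows have filled points on both sides.

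Genes with the most similar pattern were ranked among 12504 candidates by the root mean square difference of centred log2 values over the 9 libraries, where 0 is an identical pattern. Closest to Sesn1 were Lpar5, a lysophosphatidic acid receptor (0.69), Bmf, a death-promoting BCL2 family member (0.74), and the cannabinoid receptor Cnr2 (0.75), at 611 ± 139, 449 ± 36.9 and 432 ± 30.8 normalized reads in control and 27.6 ± 6.12, 29.5 ± 10.3 and 23.6 ± 12.4 with LPS + NCT503. Among the brakes Deptor was nearest to Sesn1 (1.49), and Sesn2 and Sesn3 stood at 3.07 each. Closest to Sesn2 were the channel Panx1 (0.13), the small GTPase Rap2a (0.14) and Wdtc1 (0.17). Panx1 had 816 ± 131 normalized reads in control, 608 ± 107 in LPS and 2739 ± 511 with LPS + NCT503. Closest to Sesn3 were Ppfia1 (0.17), the ubiquitin ligase Cbl (0.20) and the helicase Mcm9 (0.20), and closest to Ddit4 were the receptor kinase inhibitor Spry4 (0.16), the macrophage growth factor Csf1 (0.28) and Lmcd1 (0.36). Among the brakes, Tsc1 was nearest to Sesn2 (0.51) and to Sesn3 (0.57), the latter beside Sesn2 (0.57).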

How the data were processed

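RNA-seq libraries of 3 control, 3 LPS and 3 LPS + NCT503 samples were used. Alignment was with TopHat2 to mm10, per the submitters' processing notes. The sources used here do not name the counter, the annotation, the strand setting or the authors' test. Per the file headers and values, the authors deposited a signal per gene and library (its reads over a size factor), group means, gene lengths, and their own comparison as log2 fold change, p-value and adjusted p-value. Whole reads could be recovered for 100% of values in all 12 library columns (tolerance 0.001).

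The 9 libraries were put on one scale with DESeq2 1.42.0 size factors over 21434 shared genes. limma-trend (limma 3.58.1, R 4.3.3) was run on log2(normalized reads + 1) for genes averaging 1 normalized read or more in either group, with Benjamini-Hochberg adjustment over all of them and a threshold of 0.05. Fold changes on this scale understate genes with few reads. Alternatives were count tests on the recovered reads with edgeR 4.0.16 (6098 genes called in LPS + NCT503 against LPS, 7769 in LPS against control, 7548 in LPS + NCT503 against control) and DESeq2, other scalings, a pseudocount of 0.1, no filter, a replicate block, all 9 libraries in 1 fit, a log2 fold change of at least 1, and leaving out each library. The tests were tried on simulated data.

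Members and lists were chosen with earlier results of these data known. Named genes are the members, up to 3 called genes of smallest p per list, the 3 genes of most similar pattern among those averaging 10 normalized reads or more in a group, and the 2 neighbours of Sesn1 on either side in the order of falls. One gene that this rule names is not reported here. Castor1 was matched by identifier. RefSeq windows run from 250 bases before to 50 after a start, and the last 50 bases of 9 of the 10 were found in a GENCODE transcript.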

Additional observations from a re-analysis of the deposited data

How the results depend on the processing

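Under CPM scaling the differences of Sesn1 (0.13), Depdc5 (0.14) and Tsc2 (0.15) between LPS + NCT503 and LPS changed sign, as did those of Sesn3 (−0.30) and Nprl3 (−0.47) between LPS and control, and none of the first 3 passed the test on either scale. CPM scaling counted 8 members lower in LPS against control (beside 8539 of all genes) and 5 lower in LPS + NCT503 against control (beside 6574), and moved the log2 difference of the sestrin sum to 2.32 (LPS + NCT503 against LPS), −2.65 (LPS against control) and −0.33 (LPS + NCT503 against control, reversed); these alternatives for the sum were chosen after seeing the data. Leaving out single libraries gave 4225 to 7189 called genes for LPS + NCT503 against LPS, the lowest without LPS + NCT503 3. It gave −0.27 to 0.00067 for Sesn1 (the highest without LPS 1) and −0.037 to 0.42 for Bmf (the lowest without LPS + NCT503 3), and against control −0.25 to 0.047 for Nprl2 (the highest without LPS + NCT503 1). Castor1 and Mcm9 lost their calls without LPS + NCT503 3. The causes were not tested. The labels do not say whether equal replicate numbers mark paired libraries, and 3 libraries per group cannot settle it. The correlation of deviations between same-numbered LPS and LPS + NCT503 libraries was 0.37, 0.32 and −0.10. LPS 1 and LPS 2 correlated best with their own number among the LPS + NCT503 libraries, and LPS 3 did not. The fit with the replicate block called 8219 genes for LPS + NCT503 against LPS, with 5 members higher, 9641 for LPS against control, where it counted 0 members higher, and 8098 for LPS + NCT503 against control. Depth limits Deptor most, with 2 reads in each of 2 LPS libraries.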
